A study of Brassica napus with 6 samples.

Results

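In cultures of Brassica napus microspores, 286 genes were well expressed in 2 of 3 heat-treated cultures at day 4, close to absent in the third, and almost without counts in microspores before stress. They were 286 of the 104573 genes counted. Levels are given in CPM, a gene's count per 1000000 counts of its library. The genes had 50 CPM or more in both HS4d replicates 1 and 2, under 10 CPM in HS4d replicate 3, and 3 counts or fewer summed over the VM libraries. Genes among the 100 highest in both HS4d replicates 1 and 2 were left out. All 6 libraries were therefore used to choose the genes, so the levels below describe them and carry no test of their own.

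The HS4d group holds 3 libraries from microspore cultures kept at 32 °C from their start to day 4, labelled as heat shock and as a mixture of microspores and proembryos. The VM group holds 3 libraries from untreated vacuolated microspores (late unicellular microspores isolated from flower buds) at day 0. Both groups share 1 genotype, cultivar Topas, line DH-4079, and the series calls its replicates biological. An unheated day 4 culture is not among the libraries used here, so effects of heat, of the days in culture and of development cannot be told apart.

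Microspores are immature male gametophytes that normally develop into pollen. In Brassica napus a period of heat can turn isolated microspores towards embryogenesis, in which they divide within the pollen wall and form proembryos and later haploid embryos. Only some of the cells in such a culture respond, and a sample of RNA at the proembryo stage holds responding and non-responding cells together. In bulk samples of this kind, fewer cells of a type and less RNA per cell cannot be told apart. The transcription factor BABY BOOM, first isolated from such cultures, and the LEAFY COTYLEDON factors are known regulators of embryo identity. The files do not pair their identifiers with gene names, and 0 of the identifiers matched the reference table of the Da-Ae assembly, so neither these regulators nor markers of any cell type could be looked up among the 286 genes. All 286 carried GSBRNA2T identifiers, and 0 were among the 3533 rows with ENSRNA identifiers.

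The libraries held between 29144220 and 39558658 counts, and 3 counts made 0.0758 to 0.103 CPM. HS4d replicate 3 matched neither group closely. Its Pearson correlations across all rows, on log2(CPM + 1), were 0.699 with HS4d replicate 1 and 0.693 with HS4d replicate 2. They were 0.795 to 0.802 with VM libraries. HS4d replicates 1 and 2 reached 0.99 between them. With VM libraries they reached only 0.664 to 0.687, lower than any value for HS4d replicate 3. The 100 highest genes of each library took 36.3% and 38.4% of its counts in HS4d replicates 1 and 2. They took 11.7% in HS4d replicate 3 and 6.69% to 8.19% in VM libraries. The total of 31967898 counts in HS4d replicate 3 lay within the range of the others. Since the 286 genes were chosen by their low level in this library, each value below is given by library.

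Together, the 286 genes made up a sizeable part of the RNA in HS4d replicates 1 and 2. They took 6.69% of the counts in HS4d replicate 1 and 5.33% in HS4d replicate 2, 0.0285% in HS4d replicate 3, and 3.03e-04%, 2.74e-04% and 3.06e-04% in VM replicates 1, 2 and 3. The exact 95% binomial interval (Clopper-Pearson) was 0.0279% to 0.0291% in HS4d replicate 3 and 2.45e-04% to 3.70e-04% in VM replicate 1. These intervals cover counting error only, because each comes from a single library and holds no spread between cultures. Reads that carry no molecular identifier need not be independent molecules, so the intervals may be too narrow even for counting error. The summed share in HS4d replicate 3 lay far below that in the other heated cultures and above that in all 3 VM libraries. The limits of 50 CPM, 10 CPM and 3 counts that chose the genes shaped this order, so nothing is read from it.

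**Figure D1:**
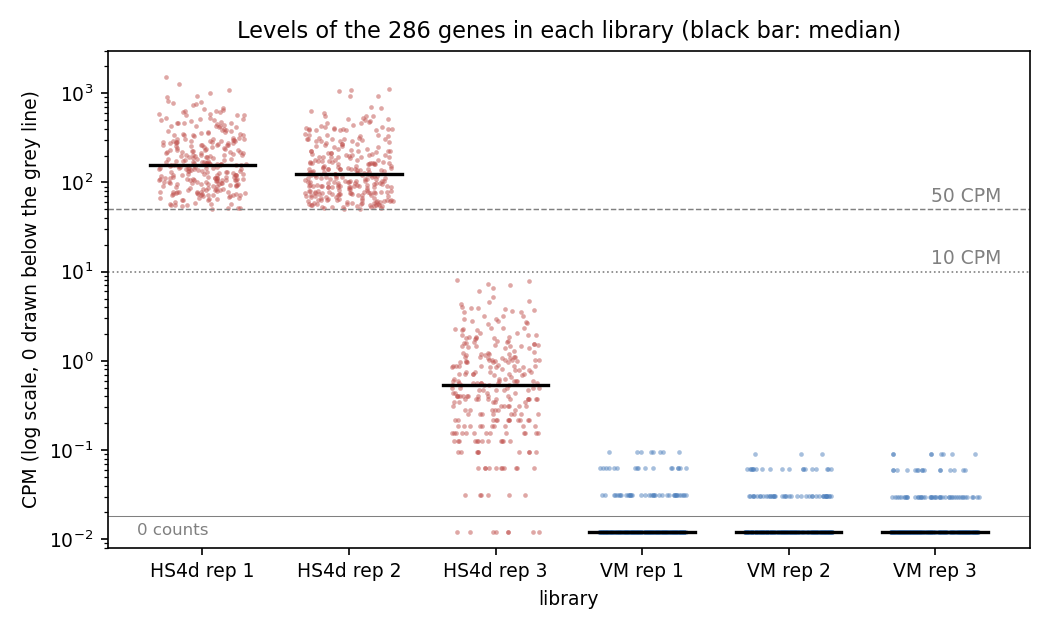
CPM of each of the 286 genes (points) in the HS4d libraries and the VM libraries, on a log scale, with the median as a black bar and genes with 0 counts drawn below the grey line. The medians are 158.3, 122.9 and 0.53 CPM in HS4d replicates 1, 2 and 3 and 0 in each VM library, and the dashed and dotted lines mark the limits of 50 and 10 CPM that chose the genes.

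Single genes spanned a wide range. The median was 158.3 CPM in HS4d replicate 1 (range 51.0 to 1511), 122.9 CPM in HS4d replicate 2 (50.5 to 1126) and 0.53 CPM in HS4d replicate 3 (0 to 8.01). The median was 0 CPM in each VM library, where the highest values were 0.0947, 0.0913 and 0.0899 CPM in replicates 1, 2 and 3. By rank among all genes, the members stood between places 82 and 1968 in HS4d replicate 1 and between 111 and 1941 in HS4d replicate 2, with median ranks of 614.5 and 707. In HS4d replicate 3 they stood between 23330 and 69744. By the mean of HS4d replicates 1 and 2, 3 genes reached 1000 CPM, 21 reached 500 CPM, 101 reached 200 CPM and 197 reached 100 CPM. The 10 highest held 15.1% of the summed mean level and the 61 highest were needed to reach 50% of it. The choice of genes had left out the 100 highest in both libraries and other abundant genes, so this evenness describes the chosen set only.

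The most abundant gene was GSBRNA2T00101037001, whose product the files do not name. It had 1511, 1126 and 1.28 CPM in HS4d replicates 1, 2 and 3, against 0, 0.0304 and 0 CPM in VM replicates 1, 2 and 3. The VM value is 1 count in all. HS4d replicate 1 was above replicate 2 by 0.42 on the log2 scale, and HS4d replicate 3, with 41 counts, lay far below both. Its level there was 0.0973% of the mean of HS4d replicates 1 and 2, with an exact 95% Poisson interval of 0.0698% to 0.132%. The ratio of pooled CPM, HS4d to VM, was 86195. Its exact 95% interval for counting error ran from 15470 to 3404565 and is wide because of the single VM count.

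The next most abundant was GSBRNA2T00038271001, also without a named product. It had 1286, 1087 and 3.85 CPM in HS4d replicates 1, 2 and 3, against 0.0631, 0 and 0 CPM in VM replicates 1, 2 and 3. The VM value rests on 2 counts. HS4d replicate 3 held 123 counts, or 0.324% of the mean of the other heated cultures (0.27% to 0.387%). This interval does not overlap that of GSBRNA2T00101037001. If reads are taken as independent, the fractions found in HS4d replicate 3 thus differed by more than counting error. The ratio of pooled CPM, HS4d to VM, was 39195, with an interval from 10850 to 323651.

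Other members stood at the ends of other measures. The member with the highest ratio of HS4d replicate 1 to replicate 2 had 197.6, 65.8 and 0.0626 CPM in HS4d replicates 1, 2 and 3. It had 1 count over VM. The member with the lowest such ratio had 111.1, 310.8 and 1.78 CPM in HS4d replicates 1, 2 and 3, and 3 counts over VM. The member that kept the largest fraction of its level in HS4d replicate 3 had 51.5, 67.6 and 6.07 CPM in HS4d replicates 1, 2 and 3, and 2 counts over VM. That fraction was 10.2% of the mean of HS4d replicates 1 and 2 (exact 95% Poisson interval 8.81% to 11.7%).

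The near absence from VM was spread evenly over its libraries. The 286 genes had 288 counts in all over VM, of which 96, 90 and 102 fell in replicates 1, 2 and 3. No count was found over the 3 VM libraries for 132 genes, 1 count for 66, 2 counts for 42 and 3 counts for 46. The limit cut through a continuous range, since with all other limits kept a further 33 genes had 4 counts over VM. The mean level in HS4d replicates 1 and 2 had a Spearman correlation with the VM counts of 0.22 across the 286 genes, and of -0.37 across the other 1431 genes with 50 CPM or more in both. The members' counts are truncated at 3 by the choice of genes, and genes do not count as independent replicates. Both correlations are descriptions only.

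HS4d replicate 3 was rarely at 0. Only 8 of the 286 genes had 0 counts there, which allows a level of up to 0.0938 CPM for a count of 3, and 34 had 3 counts or fewer. The 8 genes without counts had 71.8 to 166.3 CPM in HS4d replicate 1 and 53.4 to 131.8 CPM in HS4d replicate 2, the highest of them standing at place 137 of the 286 by mean level. Under 1 CPM stood 197 genes, and 7 genes had 5 CPM or more. For 277 of the 286 genes HS4d replicate 3 exceeded all VM libraries, so that the groups did not overlap. Over all rows of the table, every HS4d library lay above every VM library for 10.4% of genes. The choice of genes used the same libraries, so nothing is read from this difference, and carry-over of reads between libraries was not tested.

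The 10 CPM limit in HS4d replicate 3 can be set against the genes it removed. Before that limit and the one on the 100 highest genes, 314 genes had 50 CPM or more in HS4d replicates 1 and 2 and 3 counts or fewer over VM. Of these, 91.7% were under 10 CPM in HS4d replicate 3. The members just inside the limit had 8.01, 7.88 and 7.32 CPM there, and the genes just outside it had 10.4, 10.9 and 12.4 CPM. Around the other limit, the lowest members had 50.5, 50.5 and 51.0 CPM in the lower of HS4d replicates 1 and 2, and the nearest genes left out had 49.98, 49.95 and 49.6 CPM. Among the 100 highest in both were 12 of the 314 genes, and 2 of these were under 10 CPM in HS4d replicate 3, at 8.45 and 5.97 CPM.

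**Figure D2:**
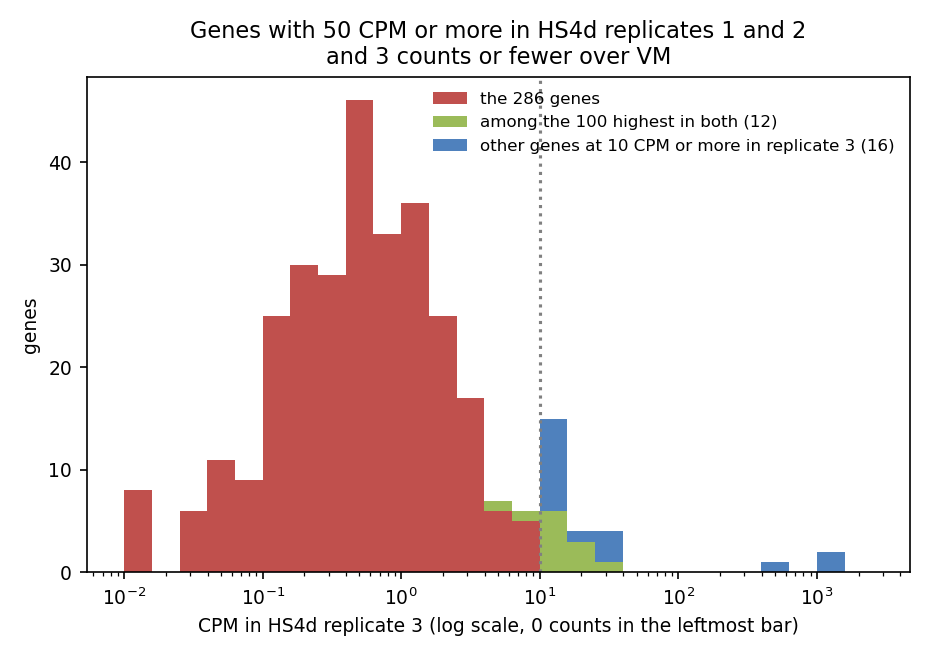
Number of genes by CPM in HS4d replicate 3 (log scale), for the 314 genes with 50 CPM or more in HS4d replicates 1 and 2 and 3 counts or fewer over VM. The 286 genes lie left of the dotted line at 10 CPM, 12 genes among the 100 highest lie on both sides of it, and 3 genes stand far to the right at 535.1 to 1199 CPM.

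The limit alone removed 16 genes beyond those among the 100 highest, and these were of several kinds when set relative to each gene's own level. HS4d replicate 3 was under 2% of the mean of HS4d replicates 1 and 2 for 297 of the 314 genes. These comprised 278 of the 286 members, all 12 of the 100 highest, and 7 others with means of 661.0 to 1208 CPM, whose 10 CPM or more in HS4d replicate 3 was 1.03% to 1.88% of their level. A further 7 members stood at 2% to 5%, and 0 genes at 5% to 10%. At 13.3% to 31.5% stood 6 genes outside the 286, which were of modest abundance (means of 77.7 to 175.7 CPM), along with the single member at 10.2%. The last 3 genes were higher in HS4d replicate 3 than in the other heated cultures, at 756.3% to 1939% of the mean of those. The most extreme in CPM had 98.0, 57.0 and 1199 CPM in HS4d replicates 1, 2 and 3 with 0 counts over VM. Among the members, 247 were under 1% and 39 at 1% or more.

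Day 4 genes that were also well expressed in VM had levels in HS4d replicate 3 much closer to those of the other heated cultures than the 286 did. Of all genes with 50 CPM or more in HS4d replicates 1 and 2, the 314 with 3 counts or fewer over VM had a median of 0.358% of that mean in HS4d replicate 3. The median was 0.444% for the 298 genes with 4 to 30 VM counts, 1.15% for the 262 with 31 to 300, 5.77% for the 388 with over 300 and up to 3000, and 98.8% for the 455 with more than 3000. The share of genes under 10 CPM in HS4d replicate 3 went down over these classes in the order 91.7%, 88.6%, 76.3%, 54.9% and 11.4%. With each step up in VM counts, the class median in HS4d replicate 3 came closer to the level of the other heated cultures. These percentages use library totals. TMM factors, which rescale the totals, were 0.55, 0.567 and 1.18 in HS4d replicates 1, 2 and 3. On that scale all the percentages would be lower, so 98.8% does not show equal levels. The VM classes were made from the same VM libraries that chose the 286 genes, and each heated culture is a single library, so no test was made.

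**Figure D3:**
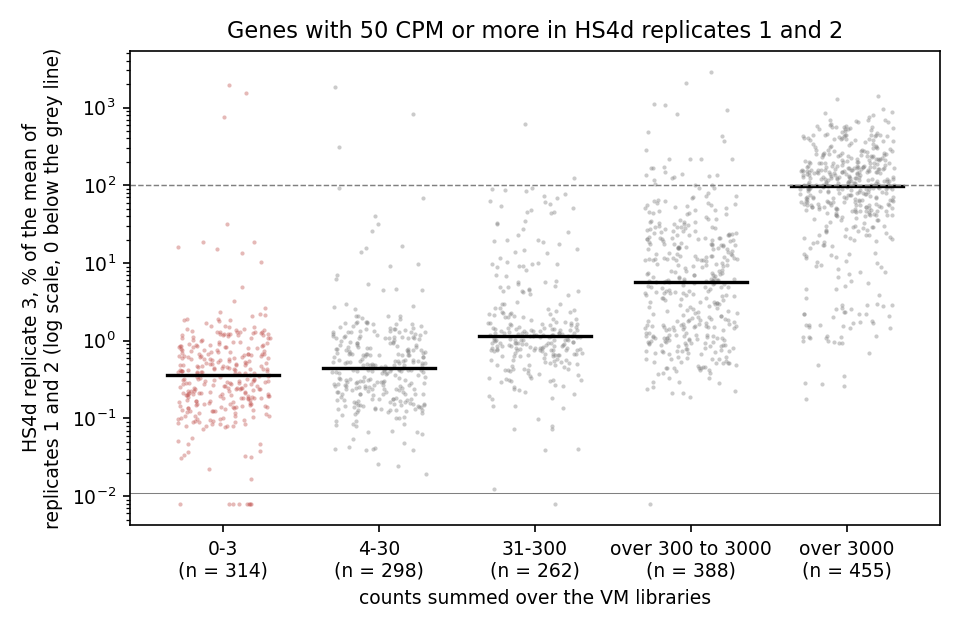
Level in HS4d replicate 3 as a percentage of the mean of HS4d replicates 1 and 2 (log scale, 0 drawn below the grey line), for genes with 50 CPM or more in HS4d replicates 1 and 2 by their counts over VM. Black bars are medians. They climb from 0.358% in the class with 0 to 3 VM counts, which holds the 286 genes, to 98.8% with more than 3000. The dashed line marks 100% by CPM on library totals.

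The 286 genes also differed between HS4d replicates 1 and 2, although the limit of 50 CPM was the same in both. The median log2 ratio of CPM, replicate 1 over replicate 2, was 0.43, and 223 of the 286 genes (78.0%) were higher in replicate 1. The interquartile range was 0.08 to 0.62, and all ratios lay between -1.48 and 1.59. Counting error, with reads taken as independent, was small beside this, with a standard error of at most 0.048 on the log2 scale for any member. At least 1.5 times higher in replicate 1 were 83 genes, at least 1.5 times higher in replicate 2 were 12, and 191 were within 1.5 times.

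The median ratio was nearer to 0 in the other gene sets it was set beside, which differed from the members in abundance. The other 1431 genes with 50 CPM or more in both libraries had a median log2 ratio of 0.07, with 57.3% of them higher in replicate 1. In HS4d replicates 1 and 2, those with 4 to 30 VM counts had median levels of 210.1 and 177.4 CPM. The medians were 116.4 and 103.5 CPM with 31 to 300, and 96.6 and 93.7 CPM with over 300 and up to 3000. With more than 3000, they were 74.5 and 77.7 CPM. By median level, only this last class leaned to replicate 2, so a lean to replicate 1 was not particular to the members. The 90 genes among the 100 highest in both, with median levels of 2654 and 3046 CPM in HS4d replicates 1 and 2, had a median ratio of -0.06, with 34 higher in replicate 1. The 96 genes that had 10 CPM or more in every HS4d library and 3 counts or fewer over VM, with median levels of 32.6 and 25.2 CPM, had a median ratio of 0.27, with 61 higher in replicate 1. With 1 library on each side, these differences have no replicate check and no test. The ratio itself was not used to choose the genes. The limit of 50 CPM in each library and the removal of genes among the 100 highest in both bear on it. Among the 100 highest in replicate 1 alone were 2 members, and in replicate 2 alone 0.

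**Figure D4:**
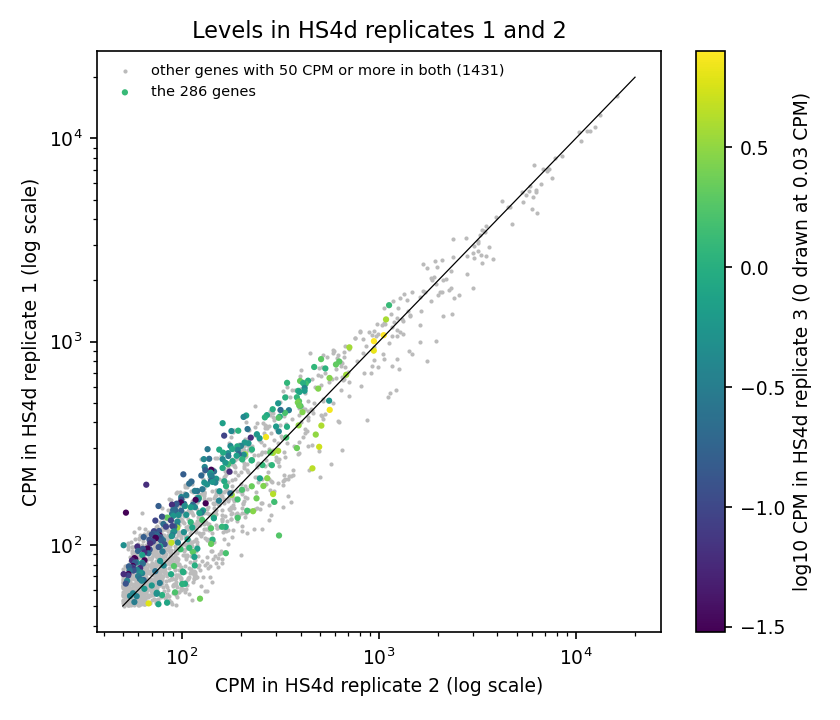
CPM in HS4d replicate 1 against HS4d replicate 2, both on log scales, for the 286 genes (coloured by log10 CPM in HS4d replicate 3) and the other 1431 genes with 50 CPM or more in both (grey), with the line of equal levels in black. Most of the 286 genes (223) lie above the line, and those below it tend to have the brighter colours of a higher level in HS4d replicate 3.

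Genes that leaned towards HS4d replicate 2 kept more of their level in HS4d replicate 3. For the 12 genes at least 1.5 times higher in replicate 2, the level in replicate 3 had a median of 1.3% of the mean of replicates 1 and 2. It was 0.9% for the 51 genes higher in replicate 2 by less, 0.298% for the 140 higher in replicate 1 by under 1.5 times, and 0.169% for the 83 higher in replicate 1 by 1.5 times or more. The trace in replicate 3 was therefore lower in each class than in the one before it, and the interquartile range of the first class (1.17% to 1.62%) did not overlap that of the last (0.116% to 0.245%).

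The same order was found with other denominators. Summed CPM in HS4d replicate 3, taken as a percentage of that in replicate 1 alone, was 1.88%, 1.05%, 0.359% and 0.171% over the same classes. As a percentage of replicate 2 alone it was 1.04%, 0.89%, 0.458% and 0.292%. The order was the same by either denominator, though the spread was narrower by replicate 2. The 8 genes without a count in HS4d replicate 3 were all higher in replicate 1 than in replicate 2. Over VM, the classes of 12, 51, 140 and 83 genes had 19, 41, 131 and 97 counts.

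**Figure D5:**
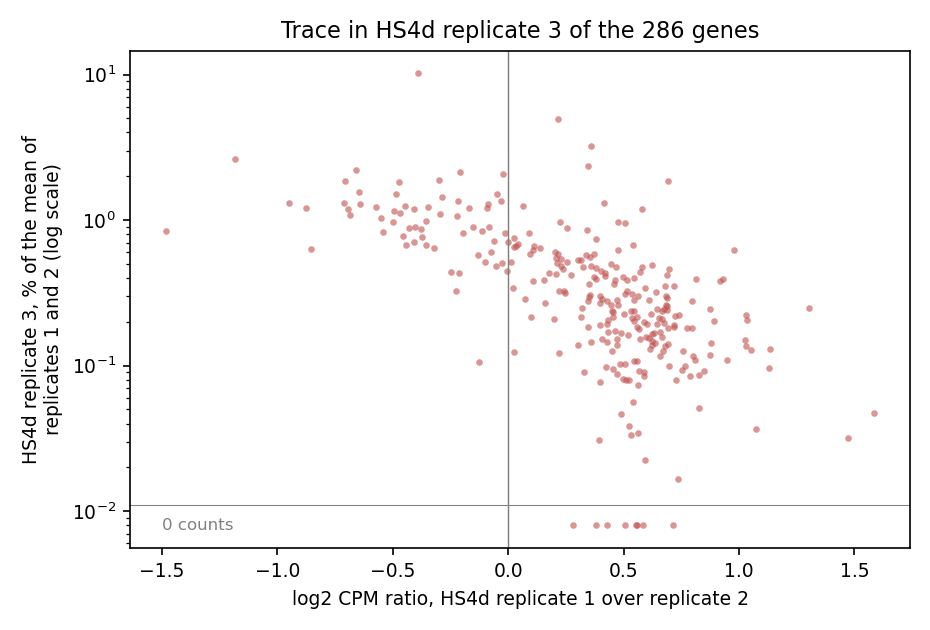
Level in HS4d replicate 3 as a percentage of the mean of HS4d replicates 1 and 2 (log scale) against the log2 ratio of replicate 1 to replicate 2, for the 286 genes. Genes left of the grey line, higher in replicate 2, mostly sit near 1%, and genes to the right reach down to 0.0167% and to 0 counts.

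The same pattern was seen in the ranks of the genes. Across the 286 genes, CPM in HS4d replicates 1 and 2 had a Spearman correlation of 0.886. CPM in HS4d replicate 3 correlated at 0.673 with replicate 2 and at 0.4 with replicate 1, and at -0.52 with the log2 ratio of replicate 1 to replicate 2. Among the 191 genes with 10 or more counts in HS4d replicate 3, where counting error weighs less, these values were 0.553, 0.32 and -0.4. Among the 90 genes that led both libraries the correlations with HS4d replicate 3 were closer together and higher, at 0.87 with replicate 2 and 0.801 with replicate 1, and the correlation with the log2 ratio was -0.21. Among the other 1431 genes with 50 CPM or more in both, HS4d replicate 3 correlated at -0.06 with replicate 2, at -0.15 with replicate 1 and at -0.29 with the log2 ratio. The points share their libraries and gene lengths, and the correlations are descriptions across genes without a p-value.

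The size of the trace differed between the 286 genes and the most abundant ones. HS4d replicate 3 stood at a median of 0.302% of the mean of replicates 1 and 2 for the 286 genes, with an interquartile range of 0.153% to 0.641%. For the 90 genes among the 100 highest in both the median was 0.821%, with an interquartile range of 0.651% to 1.1%. The 12 of these with 3 counts or fewer over VM had a median of 0.731% and a range of 0.413% to 1.31%. The limit of 10 CPM left out 7 genes at 1.03% to 1.88% of that mean that were not among the 100 highest. The 314 genes before that limit and the one on the 100 highest had a median of 0.358%. Why the sets differed was not tested.

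In the test across all genes, HS4d was compared with VM by edgeR's quasi-likelihood test with Benjamini-Hochberg adjustment. Of the 286 genes, 191 passed the filter against low counts, which were those with 10 or more counts in HS4d replicate 3, and the other 95 had 0 to 9 counts there and were not tested. All 191 rose at an adjusted p under 0.05, where 17.3% of the 56949 genes tested rose. The 191 passed the filter only through counts in HS4d replicate 3, and the choice of genes used the same contrast, so nothing is read from their count. Their fitted log2 fold changes ran from 11.66 to 18.38 and their adjusted p-values from 0.00813 to 0.0496. Fitted folds of genes with so few VM counts depend on the prior count and are no measure of size.

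These calls changed with the libraries left out, of VM and of HS4d, and with the tool. DESeq2's Wald test and edgeR with DESeq2's size factors each called all 191 as rises, and limma-voom called 5 of the 191. Without VM replicate 1, 2 or 3, edgeR called 1 of the 191 each time, and 50 without HS4d replicate 1 and 101 without HS4d replicate 2. In each of these fits all 191 had an unadjusted edgeR p under 0.05. GSBRNA2T00101037001 had a log2 fold change of 17.21 ± 3.73 (SE) and an edgeR adjusted p of 0.0216, and its adjusted p over the alternatives ran from 7.66e-14 to 0.14. For GSBRNA2T00038271001 these were 16.29 ± 3.43 (SE) and 0.0201, with a range of 4.07e-14 to 0.12. Each SE was worked back from the fitted fold and its F statistic, so it shares the limits of those folds. Without HS4d replicate 3 and with the filter recomputed, all 286 genes were tested and all 286 rose, where 36.5% of the 61116 genes tested rose. The edgeR adjusted p was then at most 3.36e-07 for any member, on genes chosen for being high in both remaining HS4d libraries.

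The authors' deposited table of log2-like values (a variance-stabilising transformation, VST, of counts) holds a row for each of the 286 genes and columns for 5 of the 6 libraries, HS4d replicate 3 not among them. The members had median VST values of 12.54 and 12.13 in HS4d replicates 1 and 2, against 3.04 in each VM library, the lowest value in that table. At this lowest value stood 223, 221 and 216 of the 286 genes in VM replicates 1, 2 and 3. For every member, the lower of HS4d replicates 1 and 2 lay above the highest VM library by at least 7.37 on the VST scale. The limits that chose the genes set this gap in advance, so nothing is read from it. The median difference of HS4d replicate 1 from replicate 2 was 0.48 on this scale, in the same direction as by CPM. These values come from the same reads, so they are another scale and not another measurement.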

How the data were processed

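RNA sequencing libraries from 3 heat-treated cultures (HS4d) and 3 samples of vacuolated microspores (VM) were compared. The authors deposited raw counts per gene for 6 libraries and log2-like VST values for 5 of them. HISAT2, DESeq2 and fastp 0.22.0 are named in the submitters' processing notes. Which program counted the reads, on which genome build, and how multi-mapping reads were handled is not given in the sources used here. Libraries were non-directional, per the labels' protocols, so reads of a gene and an antisense partner could not be told apart, and Brassica napus carries close homoeologous copies among which reads can be divided or merged.

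CPM used the library total. The 286 genes were found by fixed limits. The members and lists were chosen with earlier results of these data known. By rule, only the 2 members with the highest mean CPM in HS4d replicates 1 and 2 are named, because no table pairs the identifiers with products. HS4d was tested against VM over the whole table with edgeR 4.0.16 (limma 3.58.1, R 4.3.3): filterByExpr with a minimum count of 10, TMM factors, group as the only term, and Benjamini-Hochberg adjustment over all genes tested. The procedure was also run on simulated counts. These held no library that stood apart, so nothing about the 286 genes is read from them. Alternatives were limma-voom, DESeq2 1.42.0, its size factors, other filters, a replicate block, leaving out each library, and other limits for the members.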

Additional observations from a re-analysis of the deposited data

How the results depend on the processing

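The number of genes was 286 under the limits used. It was 446 with a limit of 25 CPM in HS4d replicates 1 and 2, 163 with 100 CPM, 132 with 0 counts over VM and 431 with 10, and 419 with CPM on the TMM-scaled library size. It was 197 to 302 with other limits in HS4d replicate 3, and 303 to 349 when the limit was asked of fewer libraries. Keeping in the 100 highest genes gave 6.97%, 5.59% and 0.0299% of counts in HS4d replicates 1, 2 and 3, and also dropping the limit in HS4d replicate 3 (chosen after seeing the data) gave 9.76%, 8.51% and 0.357%. The median log2 ratio of HS4d replicate 1 to replicate 2 was 0.48 on the TMM scale. The main edgeR test called 16327 genes, 9858 of them rises. DESeq2's Wald test called 24526. Fits that each left out 1 library called between 0 and 44587 genes, 0 and 22297 rises and 0 and 286 members as rises. On the genes of the main test alone the ranges were 3014 to 41585, 1934 to 20220 and 1 to 191. With the filter recomputed, edgeR called 0 genes without VM replicate 2, where 18484 had an unadjusted p under 0.05, and 0 members without VM replicate 1, 2 or 3, where 279, 278 and 279 had one. No other tool was run in those settings. Members that rose were 5 with limma-voom and 54 with a minimum count of 50 (chosen after seeing the data), which tested only 54. Why the other values shifted, the cause, was not tested. Deviations from the group means of HS4d and VM libraries with the same replicate number were nearly uncorrelated (-0.012, -0.035 and -0.036). HS4d replicate 3 differed strongly from HS4d replicates 1 and 2 and weighs on these deviations, so they cannot show whether replicates were paired. With the replicate block, 4666 genes changed, 3314 of them rises, and 115 members rose. The direction of both named genes held in every alternative that tested them, and the call in 8 of 17 for GSBRNA2T00101037001 and 11 of 18 for GSBRNA2T00038271001. Both genes were chosen for high levels in HS4d replicates 1 and 2 and few VM counts. Their direction was therefore fixed by the choice, and nothing is read from it.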
